A study of Mus musculus with 2 samples.

Results

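The cells described here were Leydig-like barcodes of mouse testis, taken from single-cell RNA-seq of 1 wild-type (WT) and 1 Alkbh5-/- (KO) library. Leydig cells lie between the seminiferous tubules and make testosterone. A barcode was a member when Insl3, Cyp17a1, Hsd3b1 and Cyp11a1 together reached 40 or more unique molecular identifiers (UMIs, each standing for 1 captured RNA molecule) per 10000 UMIs, and when fewer than 4 of the 7 genes Cst9, Cst12, Cldn11, Defb19, Defb36, Rhox8 and Aard had a UMI. This rule found 1122 members among 12768 barcodes. The WT library held 74 of them and the KO library 1048. The members were therefore chosen on measured values, and the levels of the 4 marker genes are given as descriptions of the selection. Because every count is of barcodes from 1 dissociated cell suspension per genotype, a share of barcodes is not a number of cells per testis.

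Both libraries came from testes of C57BL/6 mice aged 12 weeks. The KO mice lacked Alkbh5 in every tissue, so that the Leydig cells, the germ cells and the rest of the body all carried the deletion. ALKBH5 removes N6-methyladenosine, a methyl mark on RNA. The methods took testes from 3 mice of each genotype, and nothing in the files separates animals, so each library counts as 1 sample. With 1 library per genotype no test of the genotype was possible, and library and genotype cannot be told apart. All intervals below are 95% intervals that cover counting error only, exact Poisson for sums of UMIs, exact conditional for ratios and Clopper-Pearson for shares of cells.

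Testosterone is made from cholesterol in a short chain of steps. Luteinising hormone acts through its receptor Lhcgr and cyclic AMP, STAR brings cholesterol into the mitochondrion, and CYP11A1 cuts its side chain with electrons from FDXR and FDX1. HSD3B enzymes and CYP17A1 then turn pregnenolone into androstenedione, and HSD17B3 reduces it to testosterone. Insl3 encodes a peptide hormone that Leydig cells secrete. Testicular Leydig cells also lie next to macrophages and respond to inflammatory signals.

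Members held a median of 10077 UMIs and 2520 genes in WT and of 7951 UMIs and 2198 genes in KO. Their summed UMIs were 808605 in WT and 9191753 in KO, so the WT sums limit the precision of every ratio. Mitochondrially encoded genes took 8.29% of member UMIs in both libraries, and ribosomal protein genes took 7.11% in WT and 7.29% in KO. The transcript with the highest level was CT010467.1, an annotated rRNA gene, with 11.5% of member UMIs in WT and 11.8% in KO. Scrublet, a doublet caller, marked 3 WT and 58 KO members. The libraries shared 45 barcode sequences, which 1 WT member and 9 KO members carried, and none of them was a member in both.

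The selection separated a distinct group in WT and a broader one in KO. The summed marker level ran from 50.8 through a median of 266.7 to 601 per 10000 in WT members, and from 40.04 through 166.6 to 609.4 in KO members. The lowest WT members lay at 50.8 and 57.7 and the highest WT barcodes below the threshold at 26.8 and 22.6. In KO the nearest values were 40.04 and 40.15 inside and 39.87 and 39.78 outside. Barcodes between 20 and 40 per 10000 numbered 3 in WT and 29 in KO, and those between 40 and 60 numbered 2 and 42, so the threshold cut through a continuous range in KO. A further 2 WT and 33 KO barcodes passed the marker threshold and were left out for their exclusion genes.

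**Figure D1:**
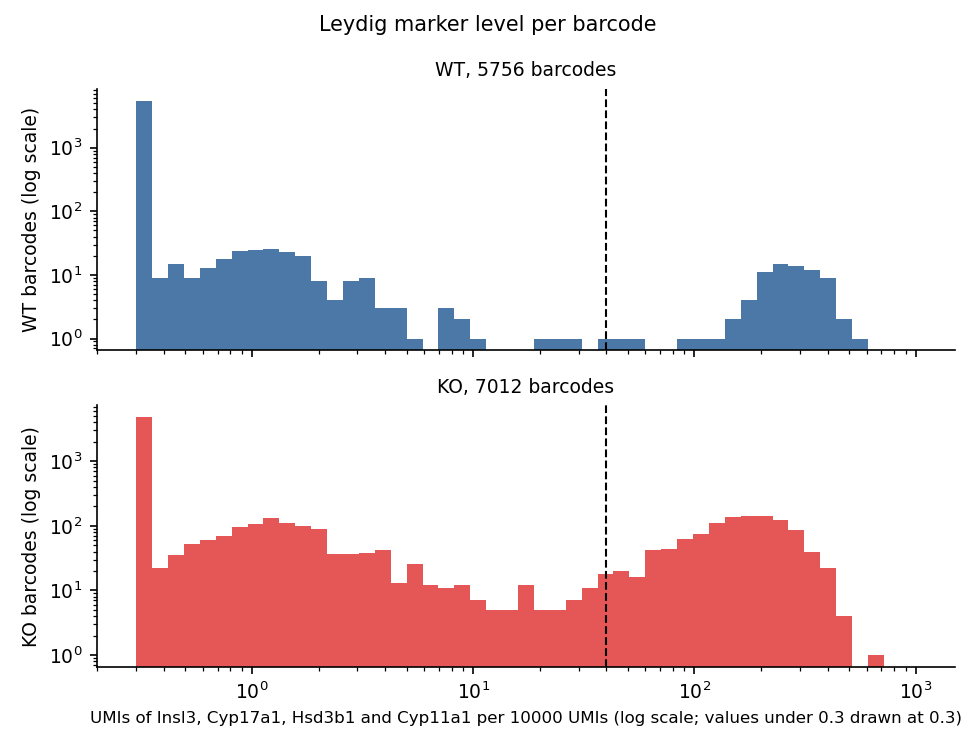
Histograms of the summed level of Insl3, Cyp17a1, Hsd3b1 and Cyp11a1 per barcode in UMIs per 10000, with WT above and KO below, both axes on log scales and the threshold of 40 as a dashed line. WT barcodes above the line centred near 266.7 per 10000, whereas the KO barcodes centred near 166.6 and filled the range on both sides of the line.

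Members made up 1.29% of WT barcodes (1.01 to 1.61) and 14.9% of KO barcodes (14.1 to 15.8), a KO over WT ratio of 11.6 (9.21 to 14.7 by the log-normal method). The Sertoli-marked share also differed, with 75 WT and 610 KO barcodes. Setting the marker threshold to 20 or 80 per 10000, removing doublets or thinning all barcodes to 5546 UMIs kept the ratio between 10.7 and 11.5. Alkbh5 itself had 22 UMIs in 17 of the 74 WT members and 0 in the 1048 KO members, which allows a share of up to 0.351% of KO members with a UMI. Against a floor of 3 UMIs over the KO members, its level was at least 83.4-fold lower in KO. Over the whole libraries Alkbh5 had 607 UMIs in WT and 5 in KO.

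Markers that the rule did not use followed the label. Of 20 further Leydig markers, 19 had UMIs in 25% or more of the members of either library, and the median member had UMIs for 17 of the 20 in WT and 16 in KO. Fabp3, a fatty acid binding protein, stood at 7379 UMIs per 1000000 (CPM) in WT and 6973 in KO members. Akr1cl, an aldo-keto reductase, stood at 6406 and 5875 CPM, and the prolactin receptor Prlr at 1107 and 1181. Hsd11b1, which interconverts active and inactive glucocorticoids, was the exception with 0 and 2 UMIs. Nr5a1, the nuclear receptor that drives steroidogenic genes, had UMIs in 52.7% of WT and 51.6% of KO members.

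Most genes defining neighbouring cell types were scarce. The 16 macrophage markers summed to 111.3 CPM in WT and 94.7 in KO members, against 13088 and 11094 CPM in the 22 WT and 90 KO macrophage-marked barcodes, which had UMIs for 5 or more of those markers. Per member the macrophage sum ran from 0 to 18.9 per 10000 in WT and from 0 to 91.4 in KO, with medians of 0. The 10 endothelial markers summed to 16.1 and 13.6 CPM. Peritubular and stromal markers summed to 447.7 and 474.8 CPM in members and to 8332 and 7787 CPM in the stromal-marked barcodes. Sertoli markers were not scarce as a list. The 14 Sertoli markers outside the rule summed to 3442 CPM in WT and 3823 in KO members, beside 2938 and 12611 CPM in Sertoli-marked barcodes. Most of this sum was clusterin (Clu), at 2632 and 2703 CPM in members, and cathepsin L (Ctsl), at 556.5 and 851.3. The hormone gene Amh and the receptor gene Fshr had no UMI in any member, and Sox9, a Sertoli transcription factor, had 0 in WT and 2 in KO.

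An exclusion gene was itself abundant in members. Defb19, a beta-defensin, had UMIs in all 74 WT members and in 99.7% of KO members, at 3094 and 2386 CPM, against 3.02 and 20.2 CPM in the barcodes outside every named class. Aard was found in 44.6% of WT and 20.2% of KO members. A limit of fewer than 2 exclusion genes therefore kept only 38 WT and 666 KO members.

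Genes that set members apart from all other barcodes were mainly of steroid and xenobiotic metabolism, kallikreins and secreted proteins. Ranked by the ratio of member CPM to other-barcode CPM with 1 CPM added, the first 15 genes were Cyp11a1, Cyp17a1, Hsd3b1, Agt, Klk1b21, Klk1b27, Fabp3, Sult1e1, Klk1b24, Bhmt, Ephx1, Insl3, Lcn2, Akr1cl and Hsd17b3. Their log2 ratios ran from 7.56 for Hsd17b3 to 8.99 for Cyp11a1. Agt encodes angiotensinogen, and it stood at 4497 CPM in WT and 4745 in KO members against 1.07 and 29.6 CPM in non-members. Bhmt, a homocysteine methyltransferase, stood at 2800 and 3369 CPM. Klk1b21, Klk1b24 and Klk1b27 belong to a family of closely similar kallikreins whose reads may have been split among them. Because the rule chose the cells, this ranking is a description.

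Leydig transcripts were also found outside the members, and more so in KO. Among barcodes of no named class, Insl3 stood at 1.14 CPM in WT and 17.2 in KO, and 1.13% and 9.42% of those barcodes had a UMI of it at median depths of 10951 and 9524 UMIs. Cyp17a1 stood at 2.12 and 12.8 CPM there. These levels were small beside the members, in which Insl3 stood at 5203 and 5552 CPM. Their part in the results was not tested.

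Genes were compared between the libraries by size. A gene entered the comparison, and is called tested below, when 25% or more of the members of either library had a UMI of it. This is a criterion of size with no p-value. A gene was called when its mean level differed by 0.25 or more in ln(1 + counts per 10000). The limit of 25% was reached by 3350 genes in WT and 2805 in KO members. More genes therefore entered through WT alone than through KO alone. Of 3477 tested genes, 112 were higher in KO members, or 3.22%, and 109 were lower, or 3.13%. Counts of called genes in the lists below stand beside these shares. The median log2 ratio of KO over WT was -0.08 over the 14305 genes with 10 or more UMIs. Ratios below are log2 ratios of CPM, KO over WT, each with its counting interval.

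**Figure D2:**
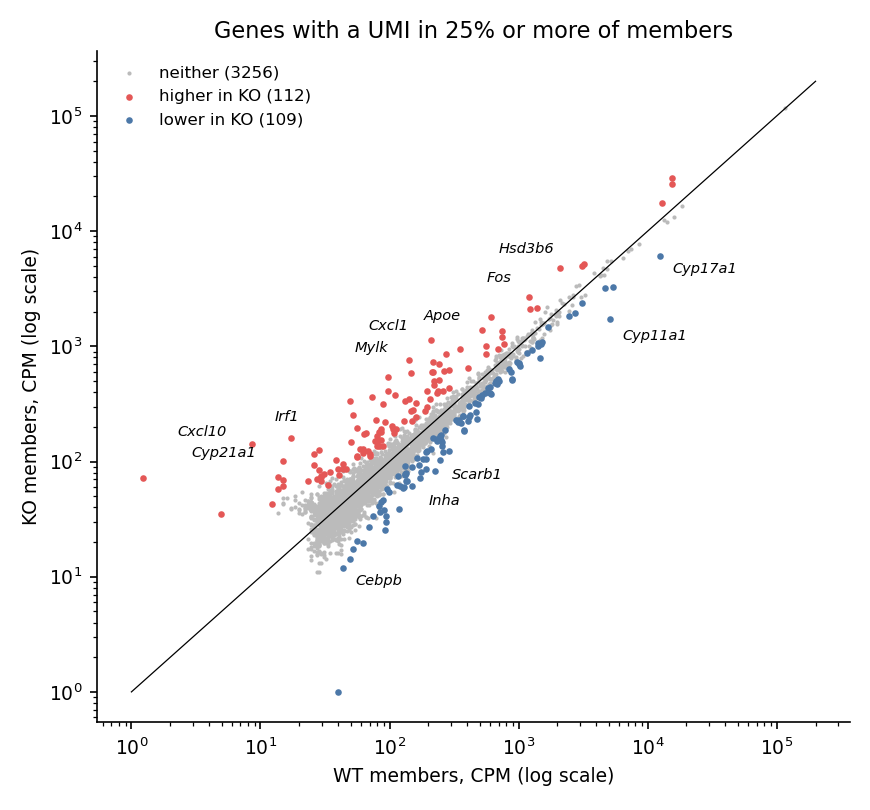
Each point is 1 of 3477 tested genes, with its CPM over WT members on the x axis and over KO members on the y axis, both on log scales with values under 1 drawn at 1 and the line marking equal levels. The 112 genes called higher in KO lie above the line, among them Cxcl1, Cxcl10, Irf1 and Apoe, and the 109 called lower lie below it, with Cyp17a1 at the highest level among those called lower.

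Genes of the steroid chain differed in both directions. Of 20 listed steroid synthesis genes 19 were in the files and 15 were tested, of which 3 were called higher in KO (Hsd3b6, Hsd17b11 and Sult1e1), 4 lower (Star, Cyp11a1, Fdx1 and Cyp17a1) and 8 neither. Over all tested genes 3.22% were called higher and 3.13% lower. The list had a median ratio of -0.10, beside -0.08 over all genes. With fewer than 2 exclusion genes allowed, 1 list gene was called higher and 4 lower. A threshold of 20 per 10000, thinned members or a rule without Hsd3b1 each gave 3 higher and 3 lower. Cyp11a1, Cyp17a1 and Hsd3b1 were also part of the rule. Their ratios, the count of lower genes and the list's median are therefore read only as a description.

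Cyp11a1, the side-chain cleavage enzyme, ran from 0 through a median of 50.4 to 119.5 per 10000 in WT members and from 0 through 14.6 to 74.8 in KO members. The lower quartile of WT members, 33.3, lay above the upper quartile of KO members, 24.2, although the ranges overlapped. Over all members it stood at 5099 CPM in WT and 1718 in KO, with a log2 ratio of -1.57 (-1.62 to -1.52). Cyp17a1, which makes androgen precursors, ran from 6.1 through 124.7 to 318.8 per 10000 in WT and from 0 through 50.9 to 337.6 in KO, and its ratio was -1.05 (-1.08 to -1.02). Insl3 was nearly level at 54.1 and 55 per 10000 in the median member and a ratio of 0.09 (0.05 to 0.14).

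Genes serving the same steps that the rule did not use gave smaller differences. Star, the mitochondrial cholesterol carrier, had medians of 11.1 per 10000 in WT and 8.4 in KO. Its ratio was -0.47 (-0.55 to -0.38), and -0.32 with members thinned. Fdx1, the ferredoxin that feeds CYP11A1, had a ratio of -0.46 (-0.59 to -0.32), and its reductase Fdxr had the same ratio of -0.46 (-0.69 to -0.23) without reaching the criterion. Cyb5a, a cytochrome b5 that aids CYP17A1, was level at 838.5 and 836 CPM. Hsd17b3, the last step to testosterone, stood at 662.9 CPM in WT and 828.4 in KO, with a log2 ratio of 0.32 (0.20 to 0.45) that did not reach the criterion.

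Downstream and side branches were higher in KO where they were called. Sult1e1, which sulfates oestrogens, stood at 1216 CPM in WT and 2122 in KO, with a log2 ratio of 0.80 (0.71 to 0.90) that was 0.29 when fewer than 2 exclusion genes were allowed. Hsd17b11, a short-chain dehydrogenase, had a ratio of 0.91 (0.55 to 1.29). Srd5a1, a steroid 5-alpha-reductase found in immature Leydig cells, stood at 27.2 and 6.75 CPM from 22 and 62 UMIs. It was found in 24.3% of WT and 5.15% of KO members, or 16.2% and 3.10% thinned, and so just missed the detection limit. Aromatase (Cyp19a1) had 0 and 5 UMIs.

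**Figure D3:**
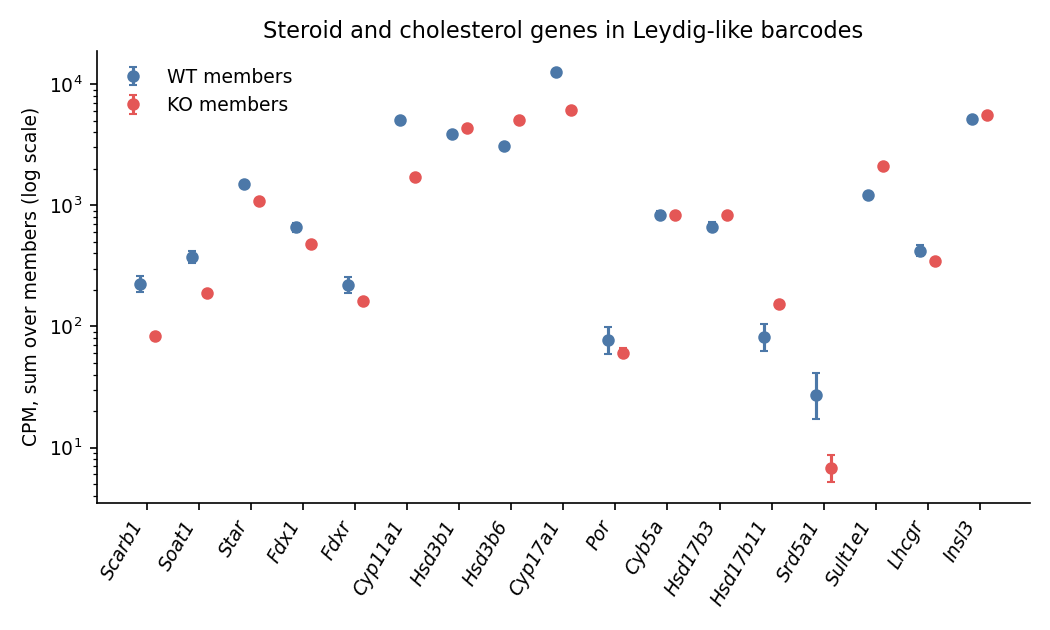
Points give the CPM of steroid and cholesterol genes summed over 74 WT and 1048 KO members on a log scale, with bars for exact Poisson 95% intervals. Cyp11a1 (5099 and 1718 CPM), Cyp17a1, Scarb1 and Srd5a1 show the widest gaps towards lower KO values, and Hsd3b6 and Sult1e1 lie higher in KO.

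The paired genes Hsd3b1 and Hsd3b6 encode isoenzymes of the same step and lie near each other on chromosome 3. The GENCODE annotation of GRCm38 places Hsd3b1 at chr3:98852194-98859794 and Hsd3b6 at chr3:98805504-98814443, both on the minus strand. Their longest annotated transcripts are 78.7% identical when aligned end to end, and 67.2% over the last 300 bases, so some reads could have been counted for the wrong partner. The 250 bases before each start are shown from RefSeq (GRCm38.p6), since many single members used mainly 1 gene of the pair. Neither holds any of the 6 motifs searched for, so both are in lower case throughout. Hsd3b1 is chr3:98859795-98860044, minus strand and Hsd3b6 is chr3:98814444-98814693, minus strand.
Hsd3b1: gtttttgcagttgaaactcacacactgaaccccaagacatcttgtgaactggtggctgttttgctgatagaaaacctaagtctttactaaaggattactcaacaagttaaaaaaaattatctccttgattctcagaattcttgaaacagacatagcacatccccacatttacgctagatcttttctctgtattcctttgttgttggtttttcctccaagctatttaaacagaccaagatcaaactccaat
Hsd3b6: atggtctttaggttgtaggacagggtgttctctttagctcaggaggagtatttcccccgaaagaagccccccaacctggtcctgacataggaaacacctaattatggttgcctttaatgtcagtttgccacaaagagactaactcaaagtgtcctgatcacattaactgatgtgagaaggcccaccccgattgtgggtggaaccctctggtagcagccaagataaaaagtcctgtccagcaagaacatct

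Among members with 10 or more UMIs of the pair, many carried nearly pure Hsd3b1 or Hsd3b6. In WT 29 of 71 members had over 90% Hsd3b1, or 40.8% (29.3 to 53.2), 16 had under 10%, or 22.5% (13.5 to 34), and 26 lay between. In KO 187 of 1028 had over 90% Hsd3b1, or 18.2% (15.9 to 20.7), 260 had under 10%, or 25.3% (22.7 to 28.1), and 581 lay between, or 56.5% (53.4 to 59.6). Mixed members, which lay between, made up 36.6% (25.5 to 48.9) in WT, a smaller share than in KO. These intervals cover counting error among the cells of each library only, so a difference between the genotypes was not tested. Leaving Hsd3b1 out of the rule gave 565 mixed members among 1002 in KO, or 56.4%. Hsd3b6 had no UMI in 23 of 74 WT members and in 124 of 1048 KO members, and in barcodes of no named class it stood at 0.796 CPM in WT and 15.5 in KO. The source of those UMIs, and its part in the mixed members, was not tested.

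Over members the pair ran against each other. Spearman's rho between their levels per 10000 was -0.48 over 74 WT members and -0.52 over 1048 KO members, and Pearson's r was -0.35 and -0.50, as a description of cells that share a library and whose Hsd3b1 entered the rule. Choosing KO members without Hsd3b1 left 1019 cells and a rho of -0.53. Hsd3b6 stood at 3083 CPM in WT and 5018 in KO, with a log2 ratio of 0.70 (0.64 to 0.76). Its median member had 21.8 per 10000 in WT and 47.6 in KO. Hsd3b1 stood at 3854 and 4323 CPM, with a log2 ratio of 0.17 (0.11 to 0.22) that was -0.41 when fewer than 2 exclusion genes were allowed.

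**Figure D4:**
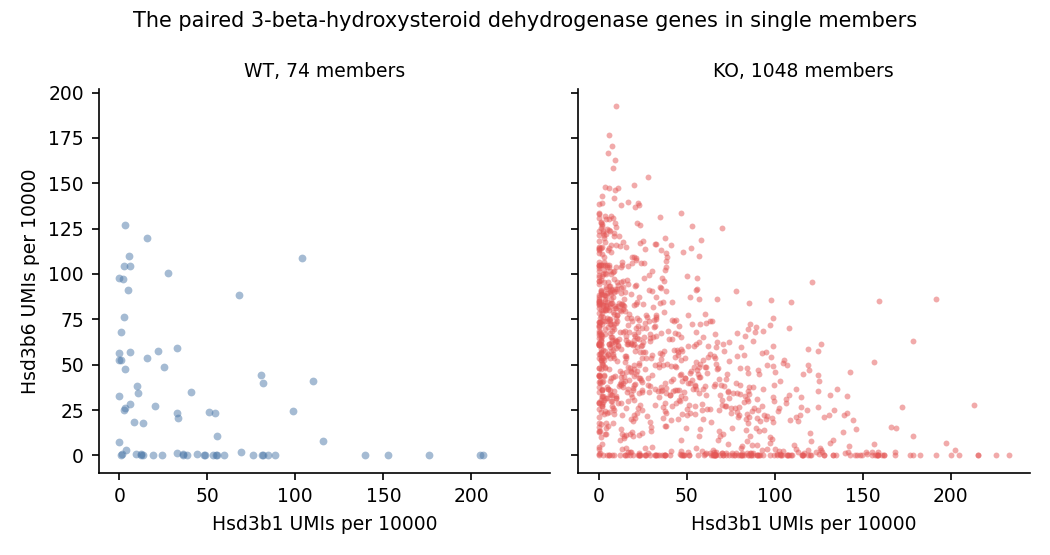
Each point is 1 member, with Hsd3b1 on the x axis and Hsd3b6 on the y axis in UMIs per 10000, for 74 WT members (left) and 1048 KO members (right). Points gather along both axes in each library, and the KO panel has 581 members with 10 to 90% Hsd3b1 between them.

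Other genes were read in the pure kinds as a description. The 22 genes with the largest ratio between the kinds in KO were taken, 11 in each direction, and in WT 7 of the 11 higher in the Hsd3b1-pure kind and 8 of the 11 higher in the other kind had the same direction. These counts rest on 29 and 16 WT cells of 1 library and support nothing about other genes. Spermatid RNA differed between the WT kinds as well, with Prm1 at 1166 CPM in Hsd3b1-pure and 14341 in Hsd3b6-pure members, and at 3364 and 2167 CPM in KO. Decorin (Dcn), a matrix proteoglycan of stromal cells, stood at 62.3 CPM in Hsd3b1-pure and 232 in Hsd3b6-pure KO members and at 30.5 and 239.5 in WT. Cd63, a tetraspanin, stood at 49.6 and 135.9 CPM in KO and 47.4 and 172 in WT. Igfbp6, an IGF binding protein, stood at 80.7 and 163.1 CPM in KO and 135.6 and 436.1 in WT. Sult1e1 ran the other way at 2709 and 1317 CPM in KO and 1779 and 970.4 in WT, as did Inha, the inhibin alpha subunit, at 90.9 and 49 CPM in KO and 308.4 and 86 in WT. The direction differed in WT for 1700009N14Rik, Pgk2, Fam229b, Ccpg1os, Timp1, Sct and Tmsb4x. The log2 ratio of Hsd3b1-pure over Hsd3b6-pure was 1.07 in KO and -2.91 in WT for 1700009N14Rik, and 0.88 and -2.14 for Pgk2, a phosphoglycerate kinase of spermatids. It was 0.83 and -1.20 for Fam229b, and -1.43 and 1.02 for Timp1.

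Most cholesterol synthesis genes were not called. Of 22 listed enzymes and regulators 20 were tested, of which 1 was called higher in KO, 3 lower and 16 neither, with a median ratio of -0.08. The shares over all tested genes were 3.22% higher and 3.13% lower. The enzyme called higher was Ebp, a sterol isomerase, at a ratio of 0.56 (0.32 to 0.80). Those called lower were Dhcr7 and Sc5d, late steps of the pathway, and Insig1, which holds back the SREBP factors, at ratios of -0.71 (-0.95 to -0.47), -0.58 (-0.76 to -0.40) and -0.77 (-1.06 to -0.46).

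Uptake and storage differed gene by gene. Of 20 listed genes 12 were tested, with 2 called higher and 2 lower and a median ratio of 0.00. The shares over all tested genes were 3.22% higher and 3.13% lower. Scarb1, the receptor that takes up cholesterol from high-density lipoprotein, was found in 55 of 74 WT members and 424 of 1048 KO members. It stood at 225.1 CPM in WT and 82.9 in KO, with a log2 ratio of -1.44 (-1.68 to -1.20), and it stood at 23.9 and 23.8 CPM in barcodes of no named class. Thinned to 5546 UMIs per member, Scarb1 was found in 66.2% of WT and 31.7% of KO members, beside unthinned shares of 74.3% and 40.5%. Soat1, which esterifies cholesterol for storage, stood at 377.2 and 188.3 CPM, and the interval of its ratio ran from -1.18 to -0.82. Apoe, an apolipoprotein, had a median of 4.67 per 10000 in WT and 12.4 in KO members and a ratio of 1.40 (1.26 to 1.54). Abca1, the cholesterol exporter, had a ratio of 0.85 (0.54 to 1.18).

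Signalling genes upstream of steroid synthesis were mostly level. Of 20 genes of luteinising hormone and cyclic AMP signalling 8 were tested, 1 was called higher and none lower, with a median of 0.08. The share called higher over all tested genes was 3.22%. The gene called was Rgs2, a regulator of G protein signalling, at a ratio of 0.80 (0.52 to 1.10), which was 0.32 with a threshold of 20 per 10000. Lhcgr had medians of 3.18 and 3.01 per 10000 and a ratio of -0.30 (-0.46 to -0.13). Of 22 regulators of the Leydig lineage only 5 were tested and none was called. The list had a median ratio of 0.45 over its 17 genes with 10 or more UMIs, beside -0.08 over all genes. Nr5a1 stood at 80.4 and 94.7 CPM and Nr2f2 at 40.8 and 37.3. Lowly detected Gata4 (10 and 236 UMIs) and Tcf21 (5 and 214 UMIs) were under the detection limit. Gata4 had a ratio of 1.05 (0.15 to 2.13).

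Among secreted products, 8 of 24 listed genes were tested, with 2 called higher and 1 lower and a median of -0.20. The shares over all tested genes were 3.22% higher and 3.13% lower. Ptgds, a prostaglandin D synthase, had a median of 156.8 per 10000 in WT and 294.4 in KO and a ratio of 0.92 (0.89 to 0.95). Cxcl12, a chemokine, had a ratio of 0.75 (0.53 to 0.99). Inha was lower in KO at 171.9 and 71.4 CPM, with a log2 ratio of -1.27 (-1.53 to -0.99). Signals to other testis cells were closer. Kitl, the ligand of KIT on germ cells, stood at 108.8 and 108.1 CPM, Mif at 565.2 and 526.5, Gas6 at 158.3 and 129.1, and Pros1 at 127.4 and 89.3.

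Immediate early genes had the most genes called in 1 direction of the lists. These transcription factors and feedback regulators respond within minutes to hormones, to stress and to handling of tissue, and preparation of the suspension cannot be told apart from genotype here. Of 23 listed genes 16 were tested, of which 14 were called higher in KO and none lower, with a median ratio of 1.47 against -0.08 for all genes. Over all tested genes 3.22% were called higher. Fos ran from 0 through a median of 8.48 to 80 per 10000 in WT members and from 0 through 24.8 to 186.9 in KO members. Its upper quartile in WT, 19.9, lay under the KO median. Atf3, a stress-induced factor, was found in 13 of 74 WT members and 630 of 1048 KO members, or 17.6% (9.70 to 28.2) and 60.1% (57.1 to 63.1), and its ratio was 2.01 (1.75 to 2.29). With every member thinned to 5546 UMIs, which left out 112 KO members, the Atf3 shares were 13.5% and 57.7%. In barcodes of no named class the Atf3 shares were 0.324% and 4.71%, at median depths of 10951 and 9524 UMIs.

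Ier3, a survival factor, stood at 96.5 CPM in WT and 545.9 in KO, and the interval of its ratio ran from 2.18 to 2.84. Fosb had a ratio of 2.10 (1.77 to 2.44). The antiproliferative gene Btg2 had 1.75 (1.53 to 1.97), the mRNA decay factor Zfp36 had 1.53 (1.32 to 1.74), Junb had 1.47 (1.25 to 1.69), Egr1 had 1.17 (0.95 to 1.39) and Jun had 0.87 (0.76 to 0.99). Jund and Klf2 were tested and not called. Per member the summed list had medians of 25.9 per 10000 in WT and 93.4 in KO, and its upper WT quartile of 64.3 lay under the KO median. Some WT members reached high values, the highest 366 per 10000 against 533.7 in KO, so the ranges overlapped.

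Of 32 listed inflammatory response genes 12 were tested, with 8 called higher in KO, 1 lower and 3 neither, and 20 were under the detection limit. Over all tested genes 3.22% were called higher and 3.13% lower. The list had a median ratio of 0.92 over its 28 genes with 10 or more UMIs. The chemokine Cxcl1 was found in 28 of 74 WT members and 774 of 1048 KO members, ran from 0 through 0 to 27.9 per 10000 in WT and from 0 through 5.12 to 99.3 in KO, and had a ratio of 2.43 (2.21 to 2.66). Cxcl10, an interferon-induced chemokine, had 7 UMIs in 3 WT members and 1299 UMIs in 278 KO members, with a log2 ratio of 4.03 (2.98 to 5.35). Irf1, an interferon response factor, had 14 UMIs in 6 WT members and 1471 in 426 KO members, with a log2 ratio of 3.21 (2.46 to 4.08). Cxcl10, Irf1 and Nfkbiz, like Atf3, passed the detection limit only through KO, where they were high, so their calls are no support for the count. Thinned shares were 28.4% and 71.2% for Cxcl1, 4.05% and 24% for Cxcl10 and 5.41% and 34.9% for Irf1, and 6 of 8 tested genes were then called higher and none lower.

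Other genes called higher include feedback regulators. Nfkbia, the inhibitor of NF-kB, had a ratio of 1.78 (1.48 to 2.10), Nfkbiz had 2.43 (1.58 to 3.44), Socs3 had 1.81 (1.48 to 2.17) and Cebpd had 1.05 (0.84 to 1.28). Lcn2, a siderophore-binding protein and among the most abundant transcripts of members, stood at 15464 and 25645 CPM. Cebpb was lower at 35 UMIs in WT and 109 in KO, with a log2 ratio of -1.87 (-2.43 to -1.27). It was found in 28.4% of WT and 8.78% of KO members. Cebpb thus passed the detection limit only through WT, where it was high, so its call is no support for the count. Its ratios were -2.01 in Sertoli-marked, -2.86 in macrophage-marked and -3.78 in stromal-marked barcodes, and 2.39 in barcodes of no named class. Each of these rests on 13 UMIs or fewer per library. Tnf had no UMI in any member, Il1b had 0 and 2, Il6 had 0 and 4 and Ptgs2 had 0 and 2. The adhesion molecule Vcam1 stood at 2956 and 3427 CPM and did not reach the criterion.

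Promoters of these genes were searched for letters of known binding motifs on both strands in the 250 bases before each start. The search covered 12 member genes in the RefSeq table, which were Insl3, Cyp11a1, Hsd3b1, Hsd3b6, Fos, Btg2, Atf3, Zfp36, Junb, Cxcl1, Cxcl10 and Irf1, of which Cyp11a1 and Irf1 have 2 windows each. The motifs were GGAANTTCC for NF-kB, the interferon-stimulated response element, TGANTCA for AP-1, TGACGTCA for cyclic AMP response elements, CAAGGNCA for NR5A1 and TATAAA for the TATA box, and no match shown overlapped another. Of all 32851 windows, 0.813% held the NF-kB letters, 2.98% the interferon element, 6.75% the AP-1 letters, 1.55% the cyclic AMP letters, 5.53% the NR5A1 letters and 12.4% the TATA letters. Cxcl1 and Cxcl10 both held the NF-kB letters, and the 3 windows with matches to inducible motifs are shown with each match in capitals. Cxcl1 is chr5:90890995-90891244, plus strand, Cxcl10 is chr5:92348890-92349139, minus strand and Btg2 is chr1:134079156-134079405, minus strand.
Cxcl1: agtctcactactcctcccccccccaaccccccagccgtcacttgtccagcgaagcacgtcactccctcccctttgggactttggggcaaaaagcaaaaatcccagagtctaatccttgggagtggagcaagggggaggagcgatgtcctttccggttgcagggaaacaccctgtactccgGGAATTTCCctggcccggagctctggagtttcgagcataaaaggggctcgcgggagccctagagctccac
Cxcl10: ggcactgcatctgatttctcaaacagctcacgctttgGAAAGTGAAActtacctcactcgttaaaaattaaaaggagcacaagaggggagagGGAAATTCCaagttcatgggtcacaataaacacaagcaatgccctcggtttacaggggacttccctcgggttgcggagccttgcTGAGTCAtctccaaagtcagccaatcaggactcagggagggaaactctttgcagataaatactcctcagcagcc
Btg2: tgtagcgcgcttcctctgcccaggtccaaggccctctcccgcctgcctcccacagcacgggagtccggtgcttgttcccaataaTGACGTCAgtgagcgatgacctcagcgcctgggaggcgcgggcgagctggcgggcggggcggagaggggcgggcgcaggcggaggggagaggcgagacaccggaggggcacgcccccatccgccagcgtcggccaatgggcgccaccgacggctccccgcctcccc

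The Cxcl1 window matched NF-kB at -70, counted from the start. That of Cxcl10 matched the interferon element at -213, NF-kB at -158 and AP-1 at -74. Btg2 matched the cyclic AMP letters at -166. Fos matched the TATA letters at -33 and Junb the NR5A1 letters at -129, and the other windows held none of the 6 motifs. These are matches of letters in these windows only.

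The immediate early difference was set beside the other barcode classes of the same libraries. The summed immediate early list stood at 4066 CPM (3928 to 4208) in WT and 10110 (10045 to 10175) in KO members. It stood at 831.4 (776.3 to 889.5) and 3490 (3445 to 3536) in Sertoli-marked barcodes, which had UMIs for 4 or more exclusion genes, and at 5934 (5629 to 6251) and 9803 (9590 to 10021) in stromal-marked barcodes. Macrophage-marked barcodes ran the other way at 8052 (7729 to 8385) and 6889 (6731 to 7048). In barcodes of no named class the list stood at 109.1 (106.8 to 111.4) and 303 (298.8 to 307.3), so it was higher in KO there as well. The source of those UMIs was not tested. The numbers of barcodes were 75 and 610 Sertoli-marked, 21 and 84 stromal-marked, and 22 and 90 macrophage-marked. The Sertoli-marked class differed widely between the libraries. Of its 5515 tested genes 1566 were called higher in KO and 1101 lower, and all 7 exclusion genes were called higher. Spermatid transcripts stood at 132042 CPM in WT and 46048 in KO Sertoli-marked barcodes, so its ratios are not particular to these lists. Their part in the ratios was not tested. Differences between classes could not be tested with 1 library per genotype.

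**Figure D5:**
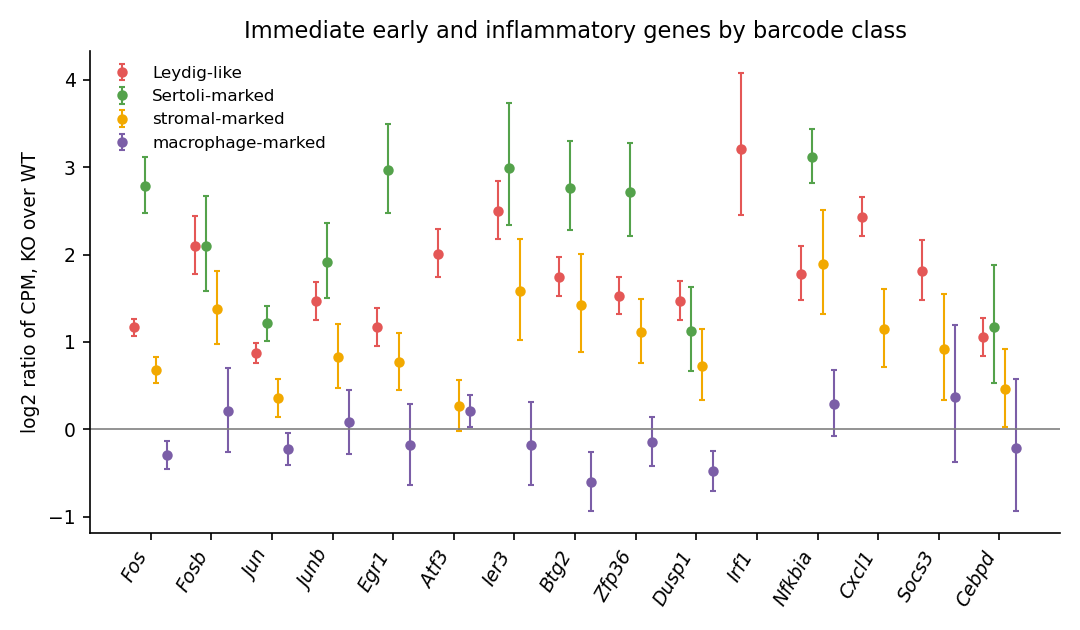
Log2 ratios of CPM, KO over WT, of 15 immediate early and inflammatory genes in 4 barcode classes, with exact 95% counting intervals as bars and genes with under 10 WT UMIs in a class left out. Leydig-like, Sertoli-marked and stromal-marked points lie above 0 although the interval of stromal-marked Atf3 reaches below 0, whereas the macrophage-marked intervals of Fos, Jun, Btg2 and Dusp1 lie below 0, that of Atf3 lies above 0, and the others shown cross 0.

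Heat shock genes gave a narrower picture. Of 24 listed genes 20 were tested, and the median ratio was 0.17. Over all tested genes 3.22% were called higher, and of this list 5 were called higher in KO and none lower. Those called were Hspa1a, Hsp90aa1, Dnajb1, Hsp90ab1 and Atf4. The number called higher was 3 with a threshold of 20 per 10000, with fewer than 2 exclusion genes and with thinned members. It was 4 with a threshold of 80 per 10000. Hspa1a, an inducible chaperone, had a ratio of 1.12 (0.71 to 1.57), Hsp90aa1 had 1.08 (0.87 to 1.29) and Dnajb1 had 1.02 (0.77 to 1.29), which was 1.59 without members rich in spermatid transcripts. Chaperones of the endoplasmic reticulum were near level, Hspa5 at 976 and 1160 CPM and Pdia3 at 435 and 420. Bag3 and Ddit3 were tested and not called.

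Antioxidant and detoxification genes were abundant and mostly level. Of 32 listed genes 30 were tested, with 3 called higher, 2 lower and 25 neither, and a median of -0.22. Over all tested genes 3.22% were called higher and 3.13% lower. Gstm1, a glutathione S-transferase, stood at 16047 and 13287 CPM, and Gpx1, which reduces hydrogen peroxide, at 1768 and 1535, with a log2 ratio of -0.20 (-0.28 to -0.12). Gpx3, a secreted glutathione peroxidase, was found in 26 of 74 WT and 636 of 1048 KO members and had a ratio of 2.31 (1.94 to 2.71), with thinned shares of 17.6% and 55%. Gsta2 had 0.87 (0.73 to 1.00). Lower in KO were Hmox1, which degrades haem, at -1.26 (-1.63 to -0.87), and the retinal dehydrogenase Aldh1a1 at -0.50 (-0.56 to -0.43). Hmox1 was found in 39.2% of WT and 21.8% of KO members, so it passed the detection limit only through WT. Glutathione S-transferases are close paralogs, and reads could have been split among them.

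Fatty acid oxidation genes lay on the lower side. Of 24 listed genes 20 were tested, 3 were called lower and none higher, and 17 were neither. Over all tested genes 3.13% were called lower. The list had a median of -0.40, beside -0.08 over all genes. Acadm, which starts the oxidation of medium chains, had a ratio of -0.48 (-0.63 to -0.34), Decr1 had -0.70 (-0.92 to -0.48) and the thiolase Acaa2 had -0.42 (-0.55 to -0.29). Acadl, the long-chain enzyme, stood at 426.7 and 413.7 CPM. Of the 23 members of the list with 10 or more UMIs, 3 had a ratio above 0, where the all-gene median was itself below 0.

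The m6A machinery gave little beyond Alkbh5. Of 21 genes 5 were tested and none was called. The reader Ythdf2 had 15 and 422 UMIs, found in 18.9% of WT and 30.2% of KO members, and a ratio of 1.31 (0.57 to 2.16). Fto, the other known m6A demethylase, had 9 and 110 UMIs and a ratio between -0.87 and 1.27. Mettl3 had 5 and 17 UMIs and Mettl14 had 4 and 63.

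By the size of the ratio alone, the 10 genes highest in KO among those tested with 100 or more UMIs were Gm11942, Cxcl10, Irf1, Rpl34-ps1, Cyp21a1, Cd52, Ier3, Cxcl1, Nfkbiz and Mylk. Gm11942 and Rpl34-ps1 are processed pseudogenes. Gm11942 (1.35% of WT and 44.6% of KO members) and Cyp21a1 (4.05% and 30.1%) passed the detection limit only through KO, like Cxcl10, Irf1 and Nfkbiz. Gm11942 had 1 UMI in WT and 662 in KO members, and 6 and 1888 UMIs in barcodes of no named class, so its difference was not confined to members. Cyp21a1, the adrenal steroid 21-hydroxylase, had 12 UMIs in 3 WT members, 66.7% of them in a single cell, and 933 UMIs in 315 KO members, with a log2 ratio of 2.77 (1.96 to 3.73). Its thinned shares were 2.70% and 24% of members. Elsewhere it was scarce, with 6 and 20 UMIs in barcodes of no named class. A pseudogene copy of Cyp21a1 exists, and its reads could have been counted there. Cd52, a surface glycopeptide of leukocytes, had 40 and 3059 UMIs and was found in 28.4% and 47.2% of members, or 14.9% and 42% thinned. Mylk, a myosin light chain kinase, had a median of 0.61 per 10000 in WT and 6.05 in KO and a ratio of 2.43 (2.16 to 2.71). Its ratio was 2.66 (2.20 to 3.16) in Sertoli-marked barcodes, where 1566 of 5515 tested genes were called higher and 1101 lower. The Mylk ratio was 1.10 (0.68 to 1.54) in stromal-marked barcodes. It was 2.69 (0.76 to 5.78) in macrophage-marked barcodes, from only 2 WT and 47 KO UMIs. In barcodes of no named class it was 0.69, so the Mylk difference was not confined to members.

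The 10 genes lowest in KO were Cebpb, Smap1, Abr, Gstm2-ps1, Gm6665, Igfbp2, Cyp11a1, Dnah2, Gpx8 and Slc38a1. Igfbp2, an IGF binding protein, stood at 117.5 CPM in WT and 38.4 in KO, with a log2 ratio of -1.61 (-1.94 to -1.27). Igfbp2 (60.8% of WT and 21.5% of KO members) and Smap1 (54.05% and 16.7%), like Cebpb, passed the detection limit only through WT. Smap1 stood at 91.5 and 25.7 CPM in members and at 254.9 and 184.7 CPM in non-members. A tested gene with too few UMIs for this ranking, 2610507I01Rik, had 32 UMIs in WT members and 0 in KO members, and 0.302 and 0.0549 CPM in non-members. It was named after its values were seen.

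Spermatid RNA had the highest sum in members among the lists of other cell types. Of 25 spermatid transcripts 12 were tested, of which 8 were called lower in KO and none higher, beside 3.13% lower over all tested genes. The list had a median ratio of -0.39, which was 0.60 with fewer than 2 exclusion genes allowed. The list took 1.19% of member UMIs in WT and 0.833% in KO, against 13.8% and 9.63% in barcodes of no named class. Prm1, a sperm protamine, had a ratio of -0.71 (-0.75 to -0.66) in members and -0.66 in barcodes of no named class. With doublets removed, 11 of the 12 spermatid genes were called lower. Over 1% of UMIs lay on the list in 9 WT and 71 KO members, and these held 82.2% and 81.5% of its UMIs. Leaving those members out gave 114 genes called higher, 105 of them among the 112, and 106 called lower, 90 of them among the 109. Spermatid genes called lower then numbered 2 of 11 tested.

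For many genes the variance among members was near that of counting error, and for a few it was far larger. Over genes found in 25% or more of KO members, the median variance of the level per 10000 was 1.24 times the Poisson value, and it was 1.28 times in WT. Counting error makes up most of the variance of a low gene, so a value near 1 does not show an even level. In KO members Ythdf2, at a mean of 0.45 per 10000, had 1.11 times the Poisson value. Gstm1, at 133.1, had 23.2 times. The 10 genes with the largest excess in KO were CT010467.1, Prm1, Prm2, Lcn2, Ptgds, Tnp2, mt-Rnr2, Hsd3b1, Smcp and Tnp1. Apart from the spermatid and rRNA transcripts these were Leydig genes, with excesses of 81 for Lcn2, 57.9 for Ptgds and 37.6 for Hsd3b1. Lcn2 ran from 1.76 through 219.6 to 993.2 per 10000 in KO members and from 3.41 through 121.9 to 591.2 in WT members. CT010467.1 took from 0.52% to 46.2% of the UMIs of a KO member and from 0.80% to 29.1% of a WT member.

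Some of this variation was shared between genes. Cyp11a1 and Cyp17a1 had a Spearman's rho of 0.50 over 1048 KO members and 0.12 over 74 WT members, with both genes in the rule. Cxcl1 and the summed immediate early list had 0.62 in KO and 0.51 in WT. All are descriptions over cells of 1 library that share its preparation and whose levels share the cell's total as divisor.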

How the data were processed

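The deposited tables held whole-number UMI counts per gene and barcode, 1 table per library. The authors loaded cells on a microfluidic chip, built libraries with a GEXSCOPE kit and counted reads of 1 barcode, UMI and gene once. The submitters' processing notes name FastQC 0.11.7, fastp, STAR 2.5.3a, featureCounts 1.6.2 and Seurat, and the stated build is human although all gene symbols are mouse, so coordinates here come from GENCODE vM21 and RefSeq on GRCm38 by symbol. Tables held 5756 WT barcodes with 80283221 UMIs and 7012 KO barcodes with 82056760 UMIs. Every barcode had over 500 genes and none was removed.

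Members, gene lists and motifs were chosen with earlier results of these data known. Member UMIs were summed per library and given as CPM. No test was run, since each genotype had 1 library. Genes named were the rule markers, list members, genes the study names, the 10 highest and 10 lowest ratios among tested genes with at least 100 UMIs, the 15 most abundant, the 15 with the largest member ratio and the 10 with the largest spread. A list's median used genes with at least 10 UMIs over both libraries, with a gene at 0 in 1 library set to 3 UMIs there. The ranking of 22 genes between Hsd3b1-pure and Hsd3b6-pure members was added after seeing the data. Scrublet in scanpy 1.11.5 ran per library on all barcodes at an expected rate of 0.06. Scripts used Python 3.11.15, numpy 2.4.6 and scipy 1.17.1 and were tested on simulated data. Alternatives covered the marker threshold, the exclusion limit, doublets, thinning, weighting, totals, detection and fold limits. Some items of the lists are not reported here.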

Additional observations from a re-analysis of the deposited data

How the results depend on the processing

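The share ratio stayed between 10.7 and 14.4 under its 6 alternatives, the highest with fewer than 2 exclusion genes. The counts of genes higher (112) and lower (109) in KO stayed within 1.5 times under every alternative except that a CPM ratio of at least 2 gave 53 lower genes, 31 of them shared with the 109, and 84 higher genes. Weighting members equally left both counts as they were, because the criterion already averages over members. The genes called changed more than the counts. With fewer than 2 exclusion genes, 74 of 144 lower genes were among the 109 and 101 of 134 higher genes among the 112. With thinned members, 88 of 118 lower genes and 90 of 104 higher genes were shared. Of the recomputed gene ratios, 822 stayed within their counting interval and 87 moved beyond it, 38 of them with fewer than 2 exclusion genes, and no called gene changed sign. List medians changed sign in 10 cases. With fewer than 2 exclusion genes these were the exclusion genes at -0.33 (0.54 before), the m6A machinery at -0.12 (0.18), spermatid transcripts at 0.60 (-0.39), other Sertoli markers at -0.21 (0.37) and endothelial markers at -0.44 (0.30). Thinned members gave -0.22 for the exclusion genes and -0.015 for peritubular and stromal markers (0.43 before). Removing doublets gave -0.17 for spermatogonia and spermatocyte transcripts (1.04 before), a threshold of 20 per 10000 gave -0.17 for endothelial markers, and leaving out members with over 1% spermatid UMIs gave -0.025 for the m6A machinery. The cause was not tested. Alternatives without CT010467.1, without spermatid-rich members and without Hsd3b1 in the rule were chosen after seeing the data. No paired analysis was possible because each genotype had 1 library, and for the same reason no replicate could be left out. The 74 WT members, with 808605 UMIs, limit the precision of low genes.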

Other observations

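Other classes of the same libraries carried the inflammatory and heat shock lists as follows. In Sertoli-marked barcodes 1566 of 5515 tested genes were called higher in KO and 1101 lower, so values of that class are not particular to these lists. The summed inflammatory list stood at 484.7 CPM (442.8 to 529.4) in WT and 2919 (2878 to 2961) in KO Sertoli-marked barcodes, at 1388 (1243 to 1546) and 3572 (3443 to 3704) in stromal-marked barcodes, and at 1165 (1045 to 1296) and 1846 (1765 to 1930) in macrophage-marked barcodes. In Leydig-like members it stood at 19403 and 32118 CPM, most of it Lcn2. In barcodes of no named class the inflammatory list stood at 108.5 (106.2 to 110.8) and 220 (216.4 to 223.6). The heat shock list stood at 6197 and 7313 CPM in members. It stood at 3761 and 7583 CPM in Sertoli-marked, 5145 and 7446 in stromal-marked and 3359 and 5595 in macrophage-marked barcodes, and at 2705 and 4079 in barcodes of no named class.

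Mitochondrially encoded genes, equal in the members of both libraries, stood at 46997 CPM in WT and 98102 in KO Sertoli-marked barcodes and at 6352 and 15409 CPM in barcodes of no named class. Apoe stood higher in KO in members and had a log2 ratio of 1.49 in Sertoli-marked and 1.47 in stromal-marked barcodes, and of -0.23 in macrophage-marked barcodes, where it stood at 2809 and 2395 CPM. The Sertoli-marked values stand beside spermatid sums of 132042 CPM in WT and 46048 in KO in that class.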
